A study of Mus musculus with 27 samples.

Results

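Class switch junctions of stimulated CH12F3 cells that lacked DNA ligase 4 (Ligase4-/-) were set against those of cells that lacked PAXX (PAXX-/-). The comparison used 12 of the 27 samples of the series, namely 6 Ligase4-/- libraries and 6 PAXX-/- libraries, chosen by the genotype in their labels, with 3 libraries from each of 2 clones per genotype. CH12F3 is a mouse B-cell lymphoma line that switches from IgM to IgA in culture. Per the series' design text, 1 Ligase4-/- clone and both PAXX-/- clones were made from the parental CH12F3 line, and the other Ligase4-/- clone came from another laboratory; the labels number the clones 1 and 2, and which Ligase4-/- number is the acquired clone is not given in the sources used here. All cells had been stimulated for 72 h with 20 ng/mL IL-4, anti-CD40 (1 mg/mL as labelled) and 1 ng/mL TGFβ, and the unmodified parental line under the same treatment (WT, 3 libraries) is given as the control. The files list junctions only, so the loss of each gene was not measured here.

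Class switching joins AID-initiated breaks in the switch region Sμ to breaks in a downstream switch region, which is Sα for IgA, and the DNA between them is deleted. DNA ligase 4 seals broken ends in classical non-homologous end joining, and PAXX is an accessory factor of the same pathway that binds Ku. Joins made without that pathway use alternative end joining, which in switch junctions is known for short runs of bases shared by both ends (microhomology) and few direct joins.

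Junctions were read by LAM-HTGTS, a sequencing assay for translocations that amplifies DNA in a linear way. It starts at a fixed primer in the bait, the Iμ promoter region just upstream of Sμ, and reads across a break into whatever DNA was joined to it (the prey). Ligase4-/- libraries held 5811 to 14524 junctions, PAXX-/- libraries 4334 to 7523 and WT libraries 3610 to 4010. Read names placed the Ligase4-/- libraries in 4 sequencing runs and the PAXX-/- libraries in 2 others, and no run held both, so an effect of the run and one of the genotype cannot be told apart. The 6 libraries of cells without XLF (XLF-/-), another accessory factor of the same pathway, were read in the same 2 runs as the PAXX-/- libraries, and their values are given where they bear on this. The WT libraries were read in a run of their own, so differences from WT carry the same limit. The series' design text speaks of biological replicates, but nothing more is said of how libraries were separated, so p-values measure the spread between libraries and may be partly technical. With 2 clones per genotype an exact permutation test over clones cannot go below p = 0.333, and clone means are given beside the main results.

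The bait sequence is shown because the joins described here end within it. It is the most common base at each position of the deposited bait alignments (mm9, chr12:114664780-114664909, minus strand, 130 bases, counted from 1 at its 5′ end), and the capitals mark its 2 copies of AGCT, a favoured target of AID, at positions 64 to 67 and 85 to 88. The AflII site, the restriction site named for blocking in the labels, begins at position 104.
bait: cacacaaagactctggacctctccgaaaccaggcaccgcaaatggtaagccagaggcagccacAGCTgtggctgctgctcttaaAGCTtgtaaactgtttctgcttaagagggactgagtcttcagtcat

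Examples of each kind of Sα join follow, taken from deposited reads. Each is the exact join found in the most libraries of its genotype within its class, with 30 bases of bait before the joint and 30 of prey after it. Capitals mark the microhomology, the inserted bases or, in direct joins, the last bait base and the first prey base. Each name gives the last bait position and the first prey position on chromosome 12 (mm9), and all prey are on the minus strand.
Ligase4-/- direct join, bait end 35, prey start 114498226: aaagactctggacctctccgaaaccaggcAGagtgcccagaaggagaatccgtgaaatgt
PAXX-/- direct join, bait end 91, prey start 114500066: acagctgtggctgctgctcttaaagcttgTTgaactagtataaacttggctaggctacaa
Ligase4-/- 2-base microhomology, bait end 34, prey start 114499360: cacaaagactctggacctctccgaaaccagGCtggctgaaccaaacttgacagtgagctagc
PAXX-/- 2-base microhomology, bait end 56, prey start 114499826: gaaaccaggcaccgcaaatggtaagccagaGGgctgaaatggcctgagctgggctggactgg
Ligase4-/- 3-base microhomology, bait end 61, prey start 114499886: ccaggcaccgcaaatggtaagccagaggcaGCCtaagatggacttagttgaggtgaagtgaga
PAXX-/- 3-base microhomology, bait end 55, prey start 114499892: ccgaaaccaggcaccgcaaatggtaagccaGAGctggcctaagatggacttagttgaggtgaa
Ligase4-/- longer microhomology, bait end 68, prey start 114497261: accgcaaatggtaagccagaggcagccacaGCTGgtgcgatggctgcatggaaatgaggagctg
PAXX-/- longer microhomology, bait end 74, prey start 114500003: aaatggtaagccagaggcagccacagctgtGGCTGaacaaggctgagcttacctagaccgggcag
Ligase4-/- insertion, bait end 73, prey start 114493972: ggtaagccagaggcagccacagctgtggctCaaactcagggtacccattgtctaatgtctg
PAXX-/- insertion, bait end 61, prey start 114494131: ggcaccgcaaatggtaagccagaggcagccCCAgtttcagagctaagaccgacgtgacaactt

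The examples were chosen for their recurrence in their own genotype, and Ligase4-/- libraries were the larger, so the counts of libraries that held each are a description and compare nothing. The Ligase4-/- joins with 2, 3 and 4 bases of microhomology were each found in 6 of 6 Ligase4-/- libraries, and in 1, 1 and 0 PAXX-/- libraries. The PAXX-/- joins with 2, 3 and 5 bases of microhomology were found in 1, 3 and 3 Ligase4-/- libraries and in 4, 5 and 5 PAXX-/- libraries. The direct joins and insertions were found in at most 3 libraries of their own genotype and in 0 of the other. The inserted bases of the PAXX-/- insertion, CCA, equal the bait after position 61 but for their first base. Insertions with this pattern are described further on. With 1 shared base, the same join was the most recurrent in both genotypes, in 6 of 6 libraries each, and it is shown further on.

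Joint structure at Sα separated the libraries of the genotypes. Ligase4-/- cells made few direct joins and more joins with 2 or more shared bases than PAXX-/- cells. Sα junctions were those in the 20 kb window chr12:114489501-114509500 (mm9), which held 23706 Ligase4-/- and 17812 PAXX-/- junctions. The direct share, that of joins with no shared and no inserted base, had a lowest value, median and highest value of 5.44%, 6.03% and 8.20% in Ligase4-/- libraries, against 16.1%, 16.9% and 17.5% in PAXX-/- libraries and 18.1% to 18.5% in WT. Every Ligase4-/- library was low and every PAXX-/- library high, library 2 of Ligase4-/- clone 2 stood above the rest of its genotype, and the groups did not overlap. The mean was 6.27% ± 0.991 (SD, n = 6) in Ligase4-/- and 16.9% ± 0.638 in PAXX-/-, a difference of -10.6 percentage points with a 95% interval of -11.6 to -9.52. The clones averaged 6.0% and 6.54% in Ligase4-/- and 17.1% and 16.6% in PAXX-/-.

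All measures were compared by a two-sided exact permutation test over the 924 splits of 6 against 6 libraries, and p-values were adjusted over the 49 measures by the Benjamini-Hochberg method. The direct share gave the smallest p this exact test allows, p = 0.00216 (adjusted p = 0.00279). Of the 49 measures, 42 passed at an adjusted 0.05 (85.7%), 23 with higher and 19 with lower Ligase4-/- values, and in 38 the libraries of the genotypes did not overlap (77.6%). The other 7 did not pass. Of the values below, those among the 49 measures passed with that smallest p in the same exact test and without overlap, unless another p is given. Values by bin, by single position or by shared or inserted letters were not among the 49 and are descriptions.

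Microhomology was the more frequent in Ligase4-/- cells. It was found in 73.6% ± 2.80 of Sα junctions in Ligase4-/- and 53.4% ± 2.29 in PAXX-/- (SD, n = 6 each), a difference of 20.2 points (95% interval 16.9 to 23.5), with 54.3% ± 0.960 in WT (n = 3). The clones averaged 71.9% and 75.2% in Ligase4-/- and 55.1% and 51.7% in PAXX-/-. Among joins without an insertion it was 92.1% in Ligase4-/- and 76% in PAXX-/-. When present, it averaged 2.85 ± 0.0464 bases in Ligase4-/- and 2.34 ± 0.0298 bases in PAXX-/-, a difference of 0.507 bases (0.458 to 0.556), and 2.33 bases in WT. The libraries ran between 2.80 and 2.91 bases in Ligase4-/- and between 2.28 and 2.37 bases in PAXX-/-, so the gap between the genotypes was larger than the spread within either. Clone means were 2.84 and 2.85 bases in Ligase4-/- and 2.32 and 2.36 bases in PAXX-/-.

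**Figure D1:**
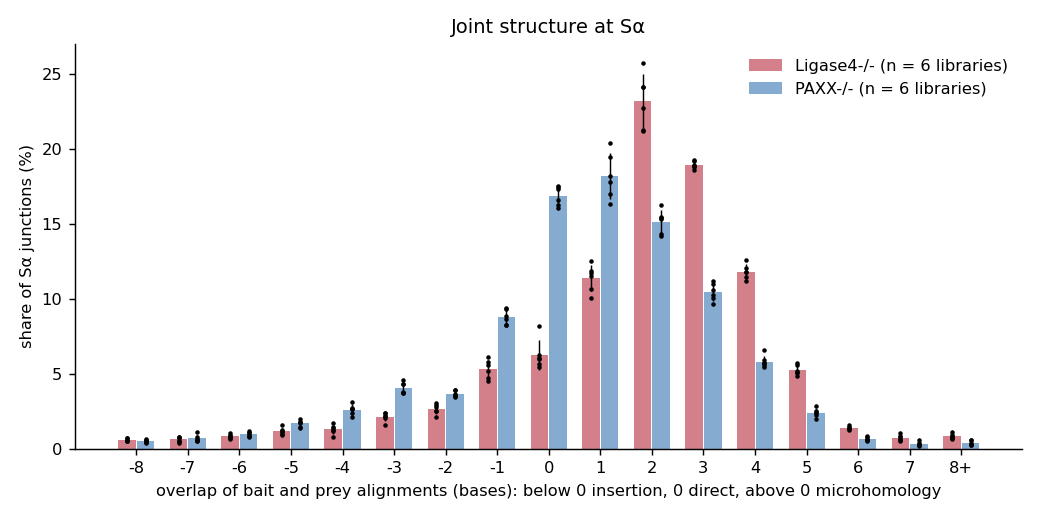
Share of Sα junctions (percent, y axis) by the overlap of bait and prey alignments in bases (x axis), where values below 0 are inserted bases, 0 is a direct join and values above 0 are microhomology, with 8 or more pooled. Bars are means of 6 libraries with SD and points are libraries, and the Ligase4-/- bars pass the PAXX-/- bars from 2 shared bases upward and lie below them from 1 shared base to 5 inserted bases.

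The order of the genotypes changed between 1 and 2 shared bases. A single shared base was found in 11.4% ± 0.877 of Sα junctions in Ligase4-/- and 18.2% ± 1.52 in PAXX-/-, the same order as for direct joins. From 2 bases on Ligase4-/- was the higher genotype, with 23.2% against 15.2% for 2 bases, 18.9% against 10.5% for 3 bases, 11.8% against 5.82% for 4 bases and 8.24% against 3.8% for 5 or more. The ratio of Ligase4-/- to PAXX-/- grew with length from 1.53 at 2 bases to 1.81 at 3, 2.03 at 4 and 2.17 at 5 or more. The 3-base share lay between 18.6% and 19.3% in Ligase4-/- libraries and between 9.65% and 11.2% in PAXX-/- libraries. The XLF-/- libraries, read in the runs of the PAXX-/- libraries, had direct shares of 5.74% to 6.68% and mean microhomology of 2.82 to 2.93 bases, inside or beside the Ligase4-/- range.

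The letters shared also differed, which is given as a description without a test. Of 4-base microhomologies, GCTG made up 11.7% ± 2.10 in Ligase4-/- and 30.3% ± 2.94 in PAXX-/-, and was the most common in both. Of 3-base microhomologies, GCT made up 11.2% ± 1.17 in Ligase4-/- and 21.0% ± 3.77 in PAXX-/-. Short GCTG and AGCTG repeats are the building blocks of switch regions. Among 5-base microhomologies CAGCT made up 5.83% in Ligase4-/- and 0.873% in PAXX-/-. PAXX-/- clone 2 carried bait substitutions inside that run, which are described below, and their part in this was not tested.

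Insertions were less frequent in Ligase4-/- cells. They were found in 16.1%, 20.1% and 23.9% of Sα junctions (lowest, median and highest library) in Ligase4-/- against 26.5%, 28.9% and 33.3% in PAXX-/- and 26.2% to 28.2% in WT. The means were 20.2% ± 2.62 and 29.7% ± 2.65, a difference of -9.56 points (-13.0 to -6.13), and the clones averaged 22.1% and 18.2% in Ligase4-/- and 27.8% and 31.6% in PAXX-/-. The differences that passed were those of the short insertions. Insertions of 1 base were 5.33% against 8.79% and those of 2 to 4 bases 6.09% against 10.4% in Ligase4-/- and PAXX-/-. Insertions of 5 to 20 bases were 6.15% ± 0.835 in Ligase4-/- and 7.14% ± 1.01 in PAXX-/- and did not pass (difference -0.990 points, interval -2.19 to 0.204, exact permutation p = 0.0931, adjusted p = 0.106). Those over 20 bases were 2.59% and 3.42% and did not pass either (interval -2.08 to 0.572, exact permutation p = 0.186, adjusted p = 0.207).

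Many of the short PAXX-/- insertions read as an unbroken bait or prey with a changed base next to the joint, a pattern looked for after the values were seen. Of insertions of 3 or 4 bases, 20.5% to 37.8% in Ligase4-/- libraries and 72.1% to 79.2% in PAXX-/- libraries either continued the bait after their first base or matched the genome before the prey up to their last base, and 72.6% to 80.5% did so in WT. Insertions of 3 to 10 bases with this pattern made up 0.997% ± 0.224 of Sα junctions in Ligase4-/- and 5.81% ± 0.520 in PAXX-/-. Without them the insertion share was 19.4% in Ligase4-/- and 25.4% in PAXX-/- (difference -6.03 points, exact permutation, adjusted p = 0.00573). For insertions of 2 to 4 bases the difference was -0.425 points without them and no longer passed (exact permutation, adjusted p = 0.306). A 1-base insertion cannot be told apart from a substituted base at the joint in this format. Inserted single bases were A in 35.0% of cases in Ligase4-/- and 46.4% in PAXX-/-, T in 34% and 37.7%, C in 16.6% and 8.68%, and G in 14.3% and 7.18%. Over all insertions of up to 20 bases, G and C made up 44.2% ± 0.563 of inserted bases in Ligase4-/- and 41.2% ± 0.830 in PAXX-/-, a call that was lost with bait ends before position 60 (2.00 points, exact permutation, adjusted p = 0.0753).

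**Figure D2:**
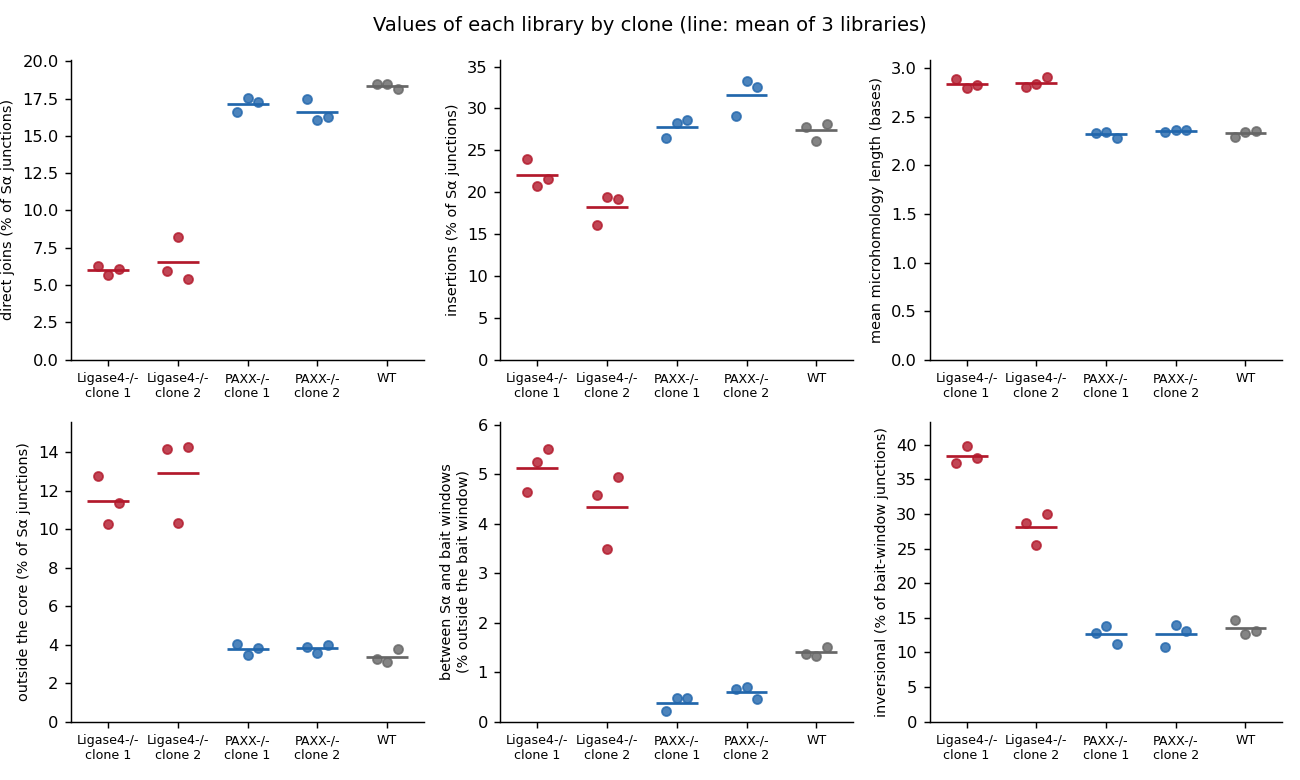
Values of each library (points) and the mean of 3 libraries (lines) for the Ligase4-/- clones, the PAXX-/- clones and WT, left to right, in 6 measures named on the y axes. Ligase4-/- libraries lie apart from PAXX-/- and WT libraries in each panel, and the Ligase4-/- clones lie apart from each other in the inversional share of the bait window, at 38.4% and 28.1%.

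The genotypes also differed in where the bait ended in Sα joins. The 5 most frequent ends were positions 68, 57, 45, 67 and 34 in Ligase4-/- and 64, 65, 76, 77 and 74 in PAXX-/-, where a shared base counts as bait. Position 64, the A of the first AGCT, was the end in 1.33% of Sα junctions in Ligase4-/- and 5.61% in PAXX-/-, and position 68, the base after that AGCT, in 4.85% and 1.68%. The PAXX-/- clones averaged 4.53% and 6.70% at position 64 and 2.84% and 0.524% at position 68. PAXX-/- clone 2 carried substitutions in that AGCT, described below, and their part in this was not tested. Position 76 was scarcely used in Ligase4-/- cells. It was the end in 0.0406% to 0.824% of junctions in Ligase4-/- libraries, 3.12% to 4.62% in PAXX-/- libraries and 3.72% to 4.20% in WT. The mean bait length over all junctions was 62.7 ± 0.800 bases in Ligase4-/- and 65.8 ± 0.878 in PAXX-/-, a difference of -3.14 bases (-4.21 to -2.06). Among bait ends before position 50, a setting that caps bait length itself, it was -0.468 bases and was not called (exact permutation, adjusted p = 0.355). Mean bait length in the XLF-/- libraries of the PAXX-/- runs was 61.8 to 65.2 bases, a range that overlapped both genotypes.

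The scarce ends formed a block of 10 positions, 75 to 84, chosen after the values were seen and given without a test. It begins at the last base of a 20-base run, positions 56 to 75, that equals its own reverse complement and is shown here with its AGCT in capitals.
self-complementary run of the bait: gcagccacAGCTgtggctgc
Ends in the block made up 1.70% ± 0.913 of Sα junctions in Ligase4-/- and 16.4% ± 2.19 in PAXX-/- (SD, n = 6 each), and 15.9% ± 0.601 in WT. Every Ligase4-/- library was low, between 1.06% and 3.52%, and every PAXX-/- library high, between 14.3% and 20.2%, with library 2 of Ligase4-/- clone 2 the highest of its genotype. The XLF-/- libraries in the PAXX-/- runs were at 1.29% to 1.72%. In bait-window junctions the block held 1.44% ± 0.961 of ends in Ligase4-/- and 14.2% ± 1.81 in PAXX-/-. On other chromosomes the levels lay closer together, at 2.44% to 6.48% in Ligase4-/- libraries and 4.96% to 9.43% in PAXX-/- libraries.

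**Figure D3:**
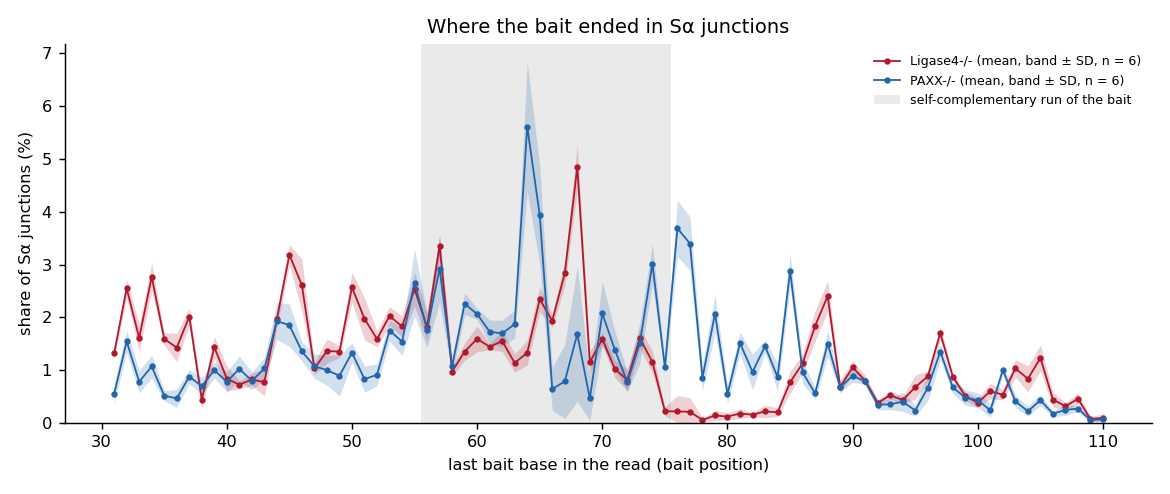
Share of Sα junctions (percent, y axis) by the last bait base in the read (bait position, x axis), as the mean of 6 libraries with a band of ± SD for each genotype and the self-complementary run of the bait in grey. The Ligase4-/- line stays near 0 from position 75 to 84, where the PAXX-/- line has peaks at 76 and 77.

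PAXX-/- clone 2 differed from the other clones within the first AGCT of the bait. The substitution G65A was present in 50.9% and C66T in 40% of its bait reads that covered the position, and each was at or below 1.95% in the other 3 clones. Its reads had AACT in 55.8%, AGTT in 41% and the unchanged AGCT in 1.71% of cases. Its ends at position 68 were 0.524% of Sα junctions, against 2.84% in PAXX-/- clone 1, and the part of the substitutions in this was not tested. Ends at positions 64 to 66, inside the first AGCT of the bait shown above, made up 5.60% ± 0.396 of Sα junctions in Ligase4-/- and 10.2% ± 1.79 in PAXX-/-. The PAXX-/- clones averaged 8.71% and 11.7%. Most reads of clone 2 did not have AGCT there, and the part of the substitutions in its value was not tested. Shared bases count as bait, so the bait end of a microhomology join is placed after them. At positions 67 and 68, ends were 2.83% and 4.85% in Ligase4-/- against 0.78% and 1.68% in PAXX-/-. Microhomology joins were the more frequent in Ligase4-/-, and the part of this placement was not tested.

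At the prey side, AGCT was less frequent in Ligase4-/- joins. Only the letters AGCT were searched, which read the same on both strands, in the 20 genome bases around the prey break given with each junction. AGCT was present in 25.8%, 31.6% and 32.3% of Sα junctions (lowest, median and highest) in Ligase4-/- libraries, against 44.7%, 45.4% and 46.6% in PAXX-/- libraries and 48.6% to 51.1% in WT. The clones averaged 32.1% and 27.7% in Ligase4-/- and 46.3% and 44.7% in PAXX-/-. Over the 14487 distinct Sα positions joined in any of the 27 libraries, 24.1% had it. The break itself lay inside an AGCT in 6.15% ± 0.985 of Sα junctions in Ligase4-/- and 15.4% ± 1.08 in PAXX-/-, against 5.15% of the distinct positions and 17.6% in WT. Shared bases count as prey here, so the break of a microhomology join is placed before them. Such joins were the more frequent in Ligase4-/-, and the part of this placement was not tested. Within the core alone, described next, AGCT was present in 32.7% in Ligase4-/- and 46.9% in PAXX-/-, where 32.1% of distinct core positions had it.

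Ligase4-/- joins were spread more widely over the Sα window. The core, chr12:114496668-114502828, was the shortest interval with 90% of Sα junctions when all 9 clones of the series counted equally. Outside it lay 10.3%, 12.1% and 14.3% of Sα junctions (lowest, median and highest) in Ligase4-/- libraries, against 3.46%, 3.85% and 4.04% in PAXX-/- libraries and 3.10% to 3.78% in WT. The mean was 12.2% ± 1.82 in Ligase4-/- and 3.8% ± 0.226 in PAXX-/-, 3.21 times as high (difference 8.40 points, 6.68 to 10.3). Clone means were 11.5% and 12.9% in Ligase4-/- and 3.78% and 3.81% in PAXX-/-. Thinned to 1000 Sα junctions a library, Ligase4-/- libraries held 887 to 909 distinct prey positions and PAXX-/- libraries 832 to 871.

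Ligase4-/- joins in the deletional orientation lay farther from the bait. Deletional junctions, which are in the orientation that leaves a switched chromosome, had their median position at -503 bp from the core centre in Ligase4-/- (libraries -780 to -298) and at 315 bp in PAXX-/- (264 to 339), where positive values are nearer the bait. The bin from 1 to 2 kb on the bait side of the centre held 7.88% ± 2.27 of Sα junctions in Ligase4-/- and 23.0% ± 1.13 in PAXX-/-. The bin from 1 to 2 kb on the far side, -2 to -1 kb, held 14.8% ± 1.56 and 8.76% ± 0.549. Beyond the far edge of the core were 8.80% of deletional junctions in Ligase4-/- and 3.16% in PAXX-/-, and beyond its near edge 1.38% and 0.478%. The near-edge difference depended on where the core was drawn, and turned to -4.52 points with a core of 80% of junctions (exact permutation, adjusted p = 0.00279).

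**Figure D4:**
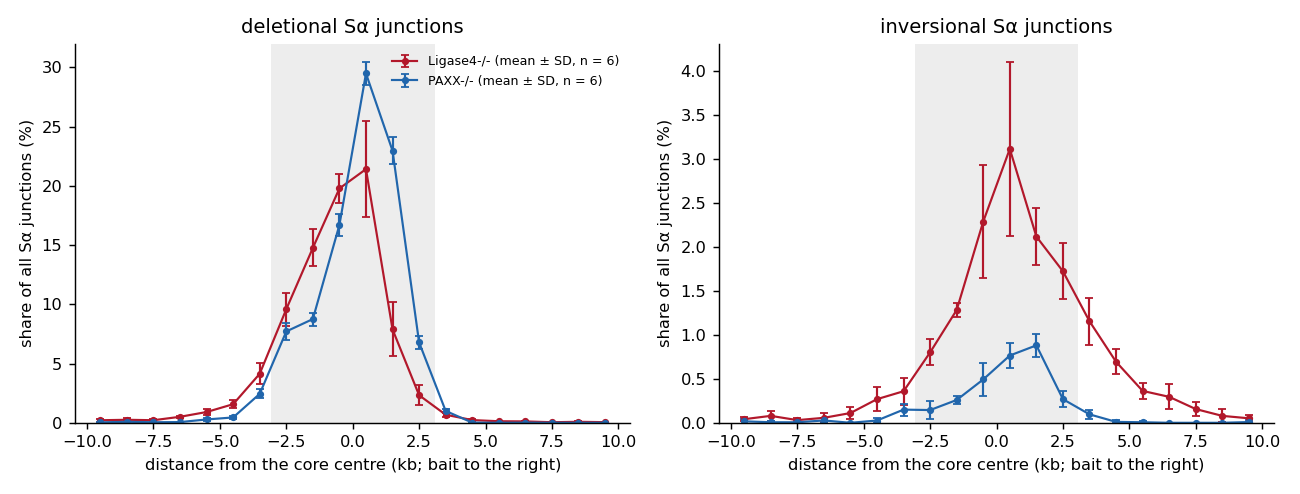
Share of all Sα junctions (percent, y axis) in 1 kb bins by distance from the core centre (kb, x axis, bait to the right), for deletional (left) and inversional junctions (right), as mean ± SD of 6 libraries, with the core in grey. The deletional PAXX-/- profile peaks on the bait side of the centre while the Ligase4-/- profile is shifted to the left, and the inversional Ligase4-/- profile lies above the PAXX-/- profile and extends past the core toward the bait.

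Orientation was less strict in Ligase4-/- cells. Deletional junctions were 84.9% ± 1.60 of Sα junctions in Ligase4-/- and 96.8% ± 0.332 in PAXX-/- (difference -11.9 points, -13.3 to -10.3), with 95.3% ± 0.549 in WT. The clones averaged 83.8% and 86.1% in Ligase4-/- and 96.9% and 96.8% in PAXX-/-. Among inversional junctions, those past the bait-side edge of the core were 17.3% ± 2.38 in Ligase4-/- and 2.26% ± 1.46 in PAXX-/-, 7.64 times as high. PAXX-/- libraries held only 46 to 127 inversional Sα junctions each and ran from 0% to 4.35% there, so the ratio rests on few junctions. In both orientations Ligase4-/- was lower in direct joins, which were 6.39% of deletional and 5.46% of inversional junctions in Ligase4-/-, against 16.9% and 15.6% in PAXX-/-. Mean microhomology was longer in inversional joins, at 3.12 bases in Ligase4-/- and 2.69 bases in PAXX-/-. These inversional PAXX-/- values rest on the same few junctions, with direct shares of 8.70% to 21.7% by library.

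Of the 5 single positions most used in PAXX-/- cells, 3 averaged 0.0137% or less in Ligase4-/- cells. They were chosen for their high PAXX-/- share, so these values are a description and compare nothing. Among the 5 most used in Ligase4-/-, positions 114499472 and 114500079 took means of 0.153% and 0.126%, against 0.0260% and 0.0382% in PAXX-/-. The other 3 of that list had higher means in PAXX-/-. Position 114500015 took a mean of 0.908% of Sα junctions in PAXX-/-, but with a range from 0.0355% to 1.90%, and 0.0137% in Ligase4-/-. Position 114499590 was used in every PAXX-/- library, at 0.213% to 0.484%, against a mean of 0.00459% in Ligase4-/-. The position most used in Ligase4-/-, 114500098, was the second most used in PAXX-/- and varied widely, from 0.0632% to 1.02% in Ligase4-/- libraries and from 0.0403% to 1.44% in PAXX-/- libraries. The 20 genome bases around each break are shown in the direction of the read, with any AGCT in capitals and the break after base 10.
position 114500015: gAGCTagacttagggtggaa
position 114499590: gctgaactaggatgggatgg
position 114500098: gctagactaggctgggctga

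A single exact join was found in all 27 libraries of the series, 1 read in each of the 12 compared here, and the next most shared join was found in 24. It joined bait position 44 to position 114498448 with 1 shared base, and its read is shown first.
join found in every library: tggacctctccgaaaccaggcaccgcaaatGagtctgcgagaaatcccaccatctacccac
The bases around the break in the unjoined bait and prey follow, with the bases absent from the join in capitals, the shared base of the prey among them.
bait around position 44: accgcaaatgGTAAGCCAGA
prey around position 114498448: TTATGTTCCAGagtctgcga
The absent bait bases begin with GT and the absent prey bases end with AG, the letters at which introns usually begin and end. Whether these reads came from DNA or from RNA was not tested.

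Near the bait, Ligase4-/- deletions reached farther. The window around the bait, which added 10 kb at either end of its alignments, held 27.7% ± 2.32 of all junctions in Ligase4-/- and 27.4% ± 2.30 in PAXX-/-, and the gap of 0.252 points did not pass (interval -2.66 to 3.24, with p = 0.857 and adjusted p = 0.875 in the exact permutation test). Of its deletional junctions, 19.1%, 23.3% and 26.9% (lowest, median and highest) lay over 3 kb from the bait in Ligase4-/- libraries, against 1.31%, 1.62% and 2.05% in PAXX-/- libraries and 0.515% to 0.687% in WT. The ratio of the means, 23.1% ± 3.32 and 1.69% ± 0.285, was 13.7, with clone means of 21.2% and 25% in Ligase4-/- and 1.47% and 1.90% in PAXX-/-. Joins within 100 bp of the bait were 5.48% ± 1.06 in Ligase4-/- and 13.5% ± 2.08 in PAXX-/-. At 500 to 1000 bp they were 25.5% ± 2.10 and 23.2% ± 1.85, and from 3 to 5 kb 12.8% ± 1.18 and 1.14% ± 0.294.

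**Figure D5:**
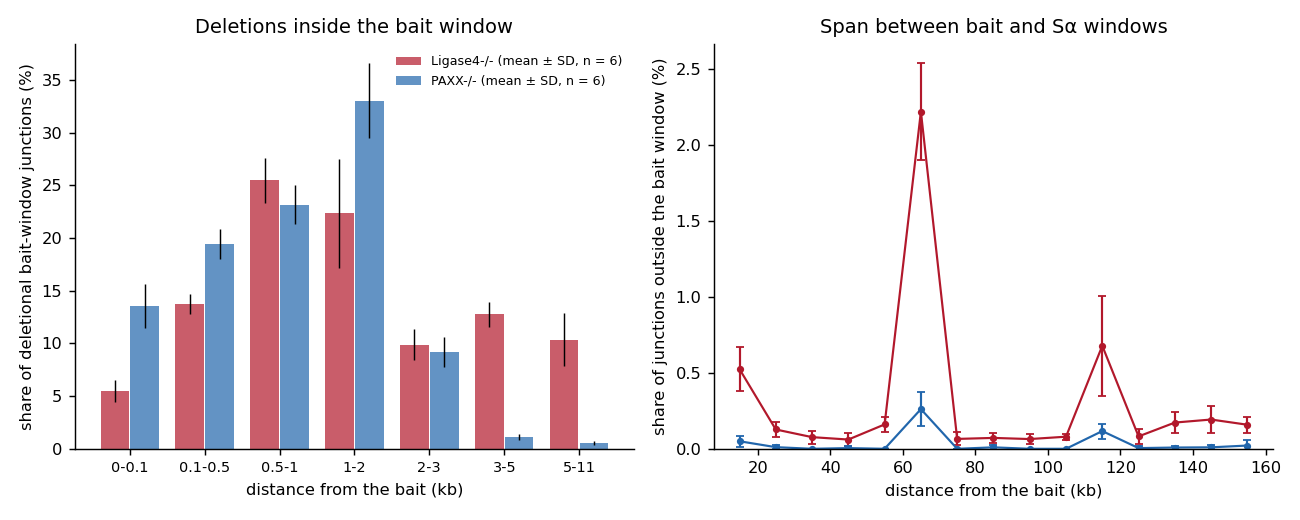
Left, share of deletional bait-window junctions (percent) by distance from the bait (kb), as mean ± SD of 6 libraries, with Ligase4-/- bars above PAXX-/- bars beyond 3 kb. Right, share of junctions outside the bait window (percent) in 10 kb bins between the bait and Sα windows, with Ligase4-/- peaks at 60 to 70 kb and 110 to 120 kb.

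Bait-window joins were ordered as at Sα in their joint structure. Direct joins were 6.68% ± 1.10 in Ligase4-/- and 17.7% ± 1.15 in PAXX-/-, and mean microhomology 2.90 and 2.30 bases. The inversional share was 33.3% ± 5.90 in Ligase4-/- and 12.6% ± 1.32 in PAXX-/-, with 13.5% in WT. The Ligase4-/- clones did not overlap, at 37.3% to 39.8% in clone 1 and 25.5% to 30.04% in clone 2, and all 6 libraries were above the PAXX-/- maximum of 14%. The clones also came from separate runs, so clone and run cannot be told apart here.

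Joins to the span between bait and Sα were rare in PAXX-/- cells. In mouse this span holds the switch regions and constant genes of the other downstream isotypes. It took 3.49%, 4.79% and 5.51% of junctions outside the bait window (lowest, median and highest) in Ligase4-/- libraries, against 0.208%, 0.473% and 0.70% in PAXX-/- libraries and 1.34% to 1.52% in WT. The means, 4.74% ± 0.706 and 0.496% ± 0.176, differed 9.55-fold (difference 4.24 points, 3.57 to 4.81), and here the PAXX-/- libraries were also below all 3 WT libraries. WT was read in a run of its own, so an effect of the run on that order cannot be told apart from one of the genotype. Clone means were 5.13% and 4.34% in Ligase4-/- and 0.385% and 0.607% in PAXX-/-. The XLF-/- libraries in the PAXX-/- runs were at 1.78% to 2.66%. Most of the span's joins lay in 2 intervals, 60 to 70 kb from the bait with 973 Ligase4-/- and 64 PAXX-/- junctions, and 110 to 120 kb with 331 and 30. In 5 of the 15 bins of 10 kb the PAXX-/- libraries held 0 junctions, where Ligase4-/- libraries held 25 to 74. With 124 PAXX-/- junctions in the whole span, counts in such bins are near the floor and do not show absence there. Pooled over libraries, 68.3% of the span's 2110 Ligase4-/- junctions were deletional (exact Clopper-Pearson 95% interval 66.3% to 70.3%), against 87.1% of 124 in PAXX-/- (79.9% to 92.4%), intervals that cover counting error only. The Ligase4-/- clones did not overlap in it, at 63.3% to 67.8% in the libraries of clone 1 and 74.5% to 77.3% in those of clone 2, and the pooled value weights the deeper clone 1 more. PAXX-/- libraries, with 9 to 26 such junctions each, were at 80% to 94.4%. The rest of chromosome 12 followed the same order, with 7.21% ± 1.30 of junctions outside the bait window in Ligase4-/- and 2.88% ± 0.548 in PAXX-/-. There the clones averaged 8.34% and 6.08% in Ligase4-/- and 2.57% and 3.20% in PAXX-/-.

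Sα joins were a smaller share of junctions in Ligase4-/- cells, by a test that rests on single libraries and on the bait ends included. Sα took 45.9%, 56.7% and 61.7% of junctions outside the bait window (lowest, median and highest) in Ligase4-/- libraries, against 51.5%, 67.7% and 79.2% in PAXX-/- libraries and 69.7% to 72.4% in WT, so the groups overlapped. The means were 54.6% ± 6.96 and 68.1% ± 9.99, which differed by -13.5 points (interval -24.5 to -2.13, with p = 0.0303 and adjusted p = 0.0354 in the exact permutation test). Leaving out any of 8 of the 12 libraries ended the call (adjusted p up to 0.0657 in the exact permutation test). The difference was -11.8 and -14.0 points without libraries 1 and 2 of Ligase4-/- clone 1, -11.8 and -14.0 without libraries 2 and 3 of Ligase4-/- clone 2, -11.7 and -11.3 without libraries 2 and 3 of PAXX-/- clone 1, and -13.8 and -13.4 without libraries 2 and 3 of PAXX-/- clone 2. Without PAXX-/- clone 1 it was -7.74 points, and among junctions with bait ends before position 50 it was -2.61 points (exact permutation, adjusted p = 0.718). Within the PAXX-/- libraries the share went with the run, at 65.1% and 51.5% in one run and 66.8% to 79.2% in the other. In the same runs, XLF-/- libraries were at 45.2% to 73.8%, which overlapped both genotypes. A share of reads is not a rate of switching per cell.

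Other chromosomes took 33.5% ± 7.70 of junctions outside the bait window in Ligase4-/- and 28.5% ± 9.41 in PAXX-/-, and the difference of 4.98 points did not pass (-6.49 to 16.1, exact permutation p = 0.340, adjusted p = 0.370). Direct joins were 13.5% ± 3.04 of them in Ligase4-/- and 17.7% ± 2.20 in PAXX-/-, a difference of -4.12 points with overlapping libraries (exact permutation p = 0.0238, adjusted p = 0.0285), and leaving out any of 4 libraries ended that call. It was -3.0 points without library 2 of Ligase4-/- clone 2, -3.78 and -3.88 without libraries 2 and 3 of PAXX-/- clone 1, -3.65 without library 1 of PAXX-/- clone 2, and -3.19 with bait ends before position 50, where the call was lost too. Microhomology was found in 54.1% ± 10.6 in Ligase4-/- and 53.2% ± 5.02 in PAXX-/- (interval of the difference -10.1 to 11.2, exact permutation p = 0.857, adjusted p = 0.875). Mean microhomology there was 4.18 bases in Ligase4-/- and 4.14 bases in PAXX-/- (interval of the difference -0.459 to 0.627, exact permutation, adjusted p = 0.916). The microhomology share was 61.9% in Ligase4-/- clone 1 and 46.3% in clone 2, and the share of reads with over 20 unaligned bases between bait and prey was 11.5% in clone 1 and 33.9% in clone 2. That share was 22.7% ± 15.5 in Ligase4-/- and 18.9% ± 6.35 in PAXX-/- and did not pass (interval -10.3 to 18.9, exact permutation, adjusted p = 0.682). Without such reads the microhomology difference was 4.48 points and passed (exact permutation, adjusted p = 0.00265). The difference between Sα and other-chromosome direct shares within a library was itself compared, and was -7.28 points in Ligase4-/- and -0.789 points in PAXX-/- (exact permutation p = 0.0130, adjusted p = 0.0159). The same difference in microhomology shares was 19.5 points in Ligase4-/- and 0.183 points in PAXX-/- (exact permutation p = 0.00649, adjusted p = 0.00816). Leaving out whole clones ended these calls, for direct joins without Ligase4-/- clone 1 (-5.46) or PAXX-/- clone 2 (-5.87), and for microhomology without Ligase4-/- clone 2 (9.89) or PAXX-/- clone 2 (15.2).

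Some recurrent sites on other chromosomes differed between the Ligase4-/- clones, which is given without a test. Windows of 10 kb that held junctions in at least 8 of the 12 libraries numbered 17, and in 4 of them all reads had over 20 unaligned bases, so those are not described. The window chr14:32420001-32430000 held 0 of the 8831 other-chromosome junctions of Ligase4-/- clone 1, which allows a share of up to 0.0340%, and 159 of 5462 (2.91%) in Ligase4-/- clone 2. In PAXX-/- it held 110 of 3323 (3.31%) in clone 1 and 103 of 3659 (2.81%) in clone 2, and 33 junctions in WT. All 3 libraries of Ligase4-/- clone 1 were at 0 and the other 9 libraries held 28 or more each. Most of the other windows not made up of such reads had the reverse order, with the higher share in Ligase4-/- clone 1. Those on chromosomes 11 and 16 did not, and some windows held few junctions. The 2 on chromosome 8 are given here. The window chr8:125950001-125960000 held 164 junctions (1.86%) in Ligase4-/- clone 1 and 22 (0.403%) in clone 2, against 23 (0.692%) and 6 (0.164%) in the PAXX-/- clones. The window chr8:129110001-129120000 held 92 (1.04%) and 8 (0.146%) in the Ligase4-/- clones, against 2 and 1 in the PAXX-/- clones. No annotation of the mm9 build was used, so the genes in these windows are not named.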

How the data were processed

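Per the submitters' processing notes, the authors aligned reads with Bowtie2 to mm9; no further step is recorded there. The deposited tables have 1 line per junction and 1 table per clone, and hold alignment coordinates, strands, read sequences and library names, which are other values than counts, scores or signals. Library names could not be tied to replicate numbers, so libraries were numbered by name. No value columns were left unused (0).

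Microhomology was counted as read bases aligned to bait and prey alike, and insertions as bases aligned to neither. The Sα window was centred on the densest 1 kb bin of chromosome 12 at least 50 kb from the bait. Shares were computed per library and averaged over 6 libraries a genotype; intervals invert the exact permutation test. The members, measures and lists were chosen with earlier results of these data known. Bait ends 75 to 84 and the insertions that read as bait or prey were chosen after seeing the values and were not tested, apart from leaving those insertions out. Named positions were the 5 most used per genotype, named windows those in at least 8 of 12 libraries, and named joins those in the most libraries. Lines repeating another junction were 0.502% to 1.46% of a library. The test was tried on simulated libraries before use. Those were independent libraries without clone or run effects, so the trial does not show how the test behaves with such effects. Python 3.11.15, numpy 2.4.6, pandas 2.3.3, scipy 1.17.1 and matplotlib 3.10.9 were used. Alternatives covered windows, core, repeats, long gaps, bait ends, thinning and left-out libraries or clones.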

Additional observations from a re-analysis of the deposited data

Results flagged for a closer look

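In 8 of 98 groups of 6 libraries, 1 library stood apart from the rest by Dixon's test, where chance gives about 1 in 20. Several measures are nested and each group holds 2 clones, so the groups are not independent. The count of 8 is therefore not read as an excess. Library 2 of Ligase4-/- clone 2 had the highest direct share of its genotype at Sα, 8.20% against 5.44% to 6.25% in the other 5, and likewise among deletional Sα junctions (8.72% against 5.62% to 6.24%) and inside the core (8.60% against 5.45% to 6.15%). It was also the Ligase4-/- library with the most ends at bait positions 75 to 84 and with the largest share of long unaligned gaps on other chromosomes, 48.9%. Library 3 of the same clone had the fewest distinct prey positions per 1000 thinned Sα junctions in Ligase4-/-, 887 against 902 to 909. Library 3 of PAXX-/- clone 1 had the shortest mean microhomology of its genotype at Sα, 2.28 bases against 2.34 to 2.37, also among deletional junctions (2.28 against 2.33 to 2.35), and the highest direct share in the bait window, 20.0% against 17% to 17.5%. Library 1 of PAXX-/- clone 1 had the highest microhomology share of joins without insertion, 77.4% against 75.4% to 75.9%. The causes were not tested.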

How the results depend on the processing

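Of the 12 main measures, the shares of the 3 joint classes at Sα, the length of microhomology there, the shares outside the core and between the windows, the deletional share and the share over 3 kb from the bait kept their direction and their side of the threshold under every alternative with a test. Clone values from pooled junctions give no test and kept the direction of all 12. Across those alternatives the direct difference ran from -16.2 to -9.26 points and the mean microhomology difference from 0.469 to 0.546 bases. The Sα share was no longer called with bait ends before position 50 (-2.61 points), before position 60 (-6.15, chosen after seeing the data), without Ligase4-/- clone 1 (-13.3) or 2 (-13.8), or without PAXX-/- clone 1 (-7.74), and ran from -16.9 to -11.3 without single libraries. Mean bait length differed by -0.468 and -1.17 bases with bait ends before positions 50 and 60 and was not called. These settings cap bait length itself, so they are no check of it. Measures that did not pass turned their sign: the other-chromosome share with bait ends before positions 50 (-5.06) and 60 (-2.04) and without PAXX-/- clone 1 (-0.402); the bait-window share with a window of 5 kb (-1.58), without Ligase4-/- clone 2 (-0.886), without PAXX-/- clone 2 (-1.11) and without single libraries (-0.559 to 0.815). On other chromosomes, the microhomology share turned with bait ends before position 50 (-1.57), without Ligase4-/- clone 1 (-6.89), without PAXX-/- clone 1 (-1.51) and without single libraries (-1.55 to 4.28). There the mean microhomology length turned in thinned libraries (-0.0308), without Ligase4-/- clone 2 (-0.212), without PAXX-/- clone 1 (-0.106) and without single libraries (-0.186 to 0.156), and the share of long gaps without Ligase4-/- clone 2 (-7.46) and without single libraries (-1.48 to 6.81). The direct difference there was no longer called with bait ends before positions 50 (-3.19) and 60 (-3.92), without either Ligase4-/- clone (-4.87 without clone 1, -3.36 without clone 2) or without PAXX-/- clone 1 (-3.24). The difference in Sα insertions of 5 to 20 bases was called in thinned libraries (-1.13), without Ligase4-/- clone 1 (-1.71) and without PAXX-/- clone 1 (-1.76), and that in insertions over 20 bases with bait ends before position 50 (-2.14) and without library 1 of Ligase4-/- clone 1 (-1.28). The G and C share of inserted bases was no longer called with bait ends before position 60 (2.00). Deletional junctions past the near core edge turned to -4.52 points with a core of 80%. The causes of these changes were not tested. No paired analysis was possible because the library names carry no replicate numbers. PCR reads without molecular identifiers are not independent molecules, so depth intervals cover counting error only.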
